A study of Homo sapiens with 9 samples.

Results

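Acetylation and trimethylation of lysine 27 of histone H3 (H3K27ac and H3K27me3) were set side by side in LNCaP cells carrying a knockdown of EZH2 (shEZH2), through the region lists deposited for these 2 marks. All regions of both lists were members: 59233 of H3K27ac and 99251 of H3K27me3, 158484 of the 335291 regions and peaks in the 6 lists of the series. The cells were LNCaP, a human line established from prostate cancer, here grown in RPMI with 10% serum, infected with a lentivirus against EZH2 and fixed with 1% paraformaldehyde after 2 to 3 days. The control group, used below only where named, was labelled plko.1, the name of the knockdown vector. Each list came from 1 library, so no difference below could be set against a spread between cultures, and no p-value was computed. The labels give no number of hairpins, no measure of EZH2 protein and no input library. No gene annotation of hg19, the build of the lists, was used here, so places are given by hg19 coordinates and the labelled cell type was not checked against marker genes.

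A lysine 27 residue can carry an acetyl group or methyl groups, but not both at once. Polycomb repressive complex 2, with EZH2 or its relative EZH1 as the catalytic subunit, adds the methyl groups, and H3K27me3 spreads over silenced genes in broad domains. Acetylation is placed by the coactivators p300 and CBP at active promoters and enhancers, usually in short, strongly enriched stretches. Both marks can be found at 1 place when alleles, neighbouring nucleosomes or cells of a population differ.

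Both lists were called by the authors with the same settings, with windows of 1000 bp merged where adjacent and a Poisson threshold of 0.001, per the file headers. The libraries held 22175405 tags for H3K27ac and 26241104 for H3K27me3, and the knockdown EZH2 library 14514395. A window needed 21 H3K27ac tags or 25 H3K27me3 tags. Scaled to 10000000 tags per library, the unit called normalised tags below, these minimums were 9.47 and 9.53 per kb. The minimum density was therefore nearly the same for both marks, unlike in the control lists, which needed 34.4 and 26.0 per kb in windows of 150 bp. The headers of both knockdown lists also give a required 4-fold excess over the local region. The EZH2 list held 9493 peaks in shEZH2 and 23060 in control. The title of the control EZH2 sample adds (CST), which the knockdown title lacks, so the titles do not establish that both used the same antibody. Repeat-rich sequence, below, means everything outside chromosomes 1 to 22, X and Y, plus the 2 Mb flanking the widest gap between listed regions on a chromosome. No repeat annotation was used, so repeated sequence elsewhere was not left out. Repeat-rich sequence so defined held 4.55% of the H3K27ac regions and 3.52% of the H3K27me3 regions, but 11.8% of the knockdown EZH2 peaks.

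H3K27me3 was the more extended mark and H3K27ac the denser one. H3K27me3 regions covered 246 Mb and H3K27ac regions 149 Mb, a ratio of 1.65. Of each library's tags, 41.3% fell in listed H3K27me3 regions and 59.0% in listed H3K27ac regions, the opposite order. The median region held 17.1 normalised tags of H3K27me3 and 30.2 of H3K27ac (order-statistic 95% interval 29.8 to 30.7). Median density was 11.4 normalised tags per kb for H3K27me3, little above the minimum for a call, and 15.9 for H3K27ac. The lists parted further at their upper ends: the 90th percentile of density was 16.0 for H3K27me3 and 66.0 for H3K27ac, a ratio of 4.13.

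Typical widths were close, and their order depended on which regions were counted. The median was 1535 bp for H3K27me3 and 1831 bp for H3K27ac, a ratio of H3K27ac over H3K27me3 of 1.19. Among regions with at least 50 normalised tags the ratio turned to 0.616, so the well-filled H3K27me3 regions were the wider ones. Regions of at least 10 kb numbered 2488 for H3K27me3 (2.51% of the list, exact binomial 95% interval 2.41 to 2.61) and 894 for H3K27ac (1.51%, 1.41 to 1.61). They held 17.3% of the listed H3K27me3 length and 9.68% of that of H3K27ac. At least 50 kb was reached by 54 H3K27me3 and 14 H3K27ac regions. All intervals here cover counting error over regions, which are not replicates.

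Density rose with width in both lists, more steeply for H3K27ac. Regions of up to 1001 bp had medians of 11.3 normalised tags per kb for H3K27ac and 10.7 for H3K27me3. Between 3 and 5 kb the medians were 35.4 and 13.2, and over 10 kb they were 58.5 (quartiles 38.8 to 83.3) and 20.1 (16.7 to 24.7). The quartile ranges of the marks overlapped in every width class up to 2 kb and were separate in every class above it.

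**Figure D1:**
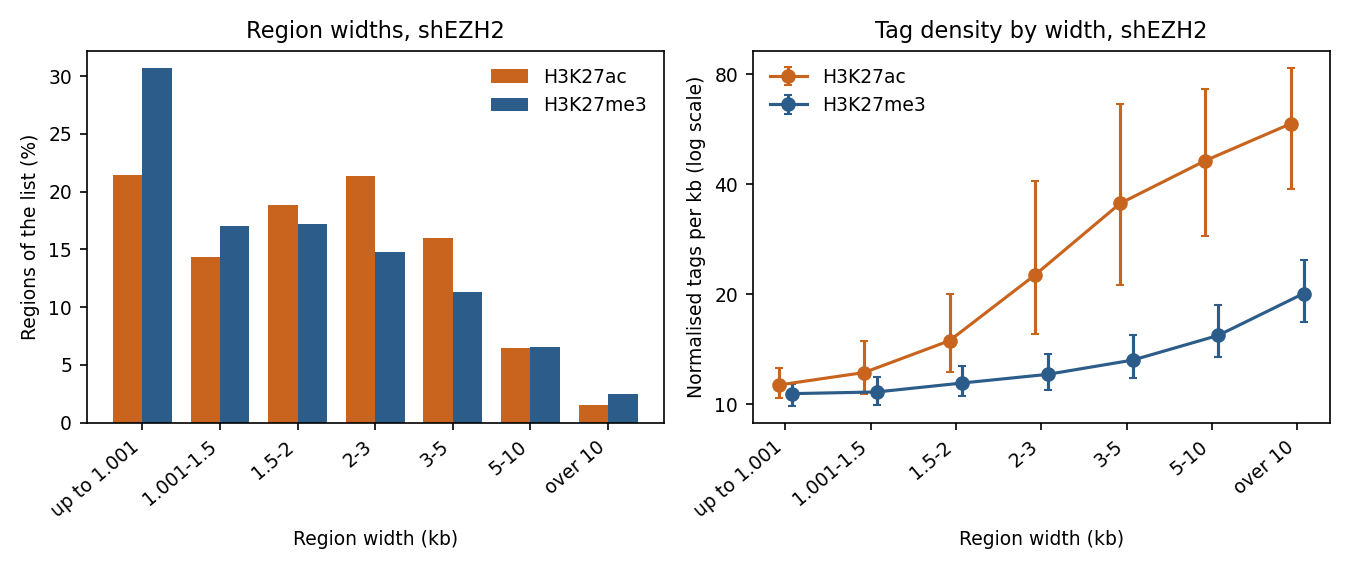
Widths and densities of the listed regions in shEZH2 cells. Left, share of each list (y axis, %) by region width (x axis, kb). Right, median normalised tags per kb (points; log axis) with the lower and upper quartile (bars) in the same width classes. The medians are 11.3 and 10.7 per kb in the narrowest class and 58.5 and 20.1 in the widest, H3K27ac first.

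The widest regions showed the same contrast. Outside repeat-rich sequence the 10 widest H3K27ac regions spanned 48.6 to 88.9 kb. The widest lay on chromosome 22 from 46430303 to 46519190 and held 11948.8 normalised tags, 134 per kb. The next, on chromosome 16 from 85638296 to 85703194, held 3705.9 tags over 64.9 kb. None of these 10 touched H3K27me3, and 3 of them held an EZH2 peak. The 10 widest H3K27me3 regions spanned 69.7 to 119 kb, and all 10 held EZH2, with 49 peaks between them. The region on chromosome 17 from 77343269 to 77443481 was 100.2 kb wide at 30.7 tags per kb and held 3 EZH2 peaks. One on chromosome 12 from 130905373 to 130990101 was 84.7 kb wide at 24.5 tags per kb and held 5.

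The widest H3K27me3 region stood apart from the others by its density. It lay on chromosome 8 from 86726461 to 86845889, held 13810.8 tags at 116 per kb, overlapped H3K27ac over 33197 bp and held 16 EZH2 peaks. Ranked by tags, the H3K27me3 list was led by regions of this kind. All 10 of the H3K27me3 regions with most tags outside repeat-rich sequence touched H3K27ac, at densities of 71.9 to 245 per kb. The shared length was as little as 1001 bp, on chromosome 4 from 9211860 to 9274925, and at most 47036 bp. Repeated sequence within these regions was not checked. Examples were chromosome 1 from 2578983 to 2634634 (6210.1 tags) and chromosome 19 from 36754694 to 36801280 (5806.5 tags). None of the 10 H3K27ac regions with most tags touched H3K27me3. The highest of them, on chromosome X from 114958777 to 115006285, held 33047 tags at 696 per kb. On the contig gl000220 an H3K27me3 region of 63.9 kb held 243065 tags, 5.89% of all tags in listed H3K27me3 regions. An H3K27ac region of 23535.1 tags lay inside the same stretch. The number of genomic copies was not measured, and its part in these tag counts was not tested.

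The marks seldom met. Of the 59233 H3K27ac regions, 2338 (3.95%, exact interval 3.79 to 4.11) shared at least 1 bp with H3K27me3. If each H3K27ac region were put with equal weight at every position of its chromosome's listed span, 15.1% would touch H3K27me3. In the other direction 2233 of 99251 H3K27me3 regions (2.25%, 2.16 to 2.34) touched H3K27ac, beside 9.83% for uniform placement. H3K27me3 covered 2.62% of the H3K27ac length, and H3K27ac covered 1.59% of the H3K27me3 length. In repeat-rich sequence touching was more frequent: 573 of 2693 H3K27ac regions (21.3%, 19.7 to 22.9) touched H3K27me3. Uniform placement gave 6.56%, but it spread these regions over the whole listed span while only repeat-rich H3K27me3 counted. That share is therefore not a like comparison. Outside repeat-rich sequence the observed share was 3.12% (2.98 to 3.27), beside 14.5%, also placed over the whole span. Repeat-rich sequence thus held 4.55% of the H3K27ac regions and 573 of the 2338 that touched.

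The shortage of H3K27me3 reached well beyond the edges of H3K27ac regions. Outside repeat-rich sequence, H3K27me3 covered 8.48% of all bases in the listed span. Inside H3K27ac regions it covered 1.40%, and within 1 kb of their edges 2.16%. The cover was 5.36% at 5 to 10 kb, 7.22% at 10 to 20 kb and 13.9% at 50 to 100 kb. It passed the average between 20 and 50 kb, stayed at 13.9% from 100 to 200 kb, and was 4.35% more than 500 kb from any H3K27ac. Around H3K27me3 regions, H3K27ac cover was also low nearby: 0.845% inside, 0.838% within 1 kb, 2.88% at 5 to 10 kb and 8.62% at 100 to 200 kb, against 5.11% over the whole span. More than 500 kb away it was 6.09%, still above that average, whereas H3K27me3 far from H3K27ac was below its own. The median H3K27ac region lay 71.2 kb from the nearest H3K27me3 region, and 4.70% lay within 1 kb, touching regions included.

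**Figure D2:**
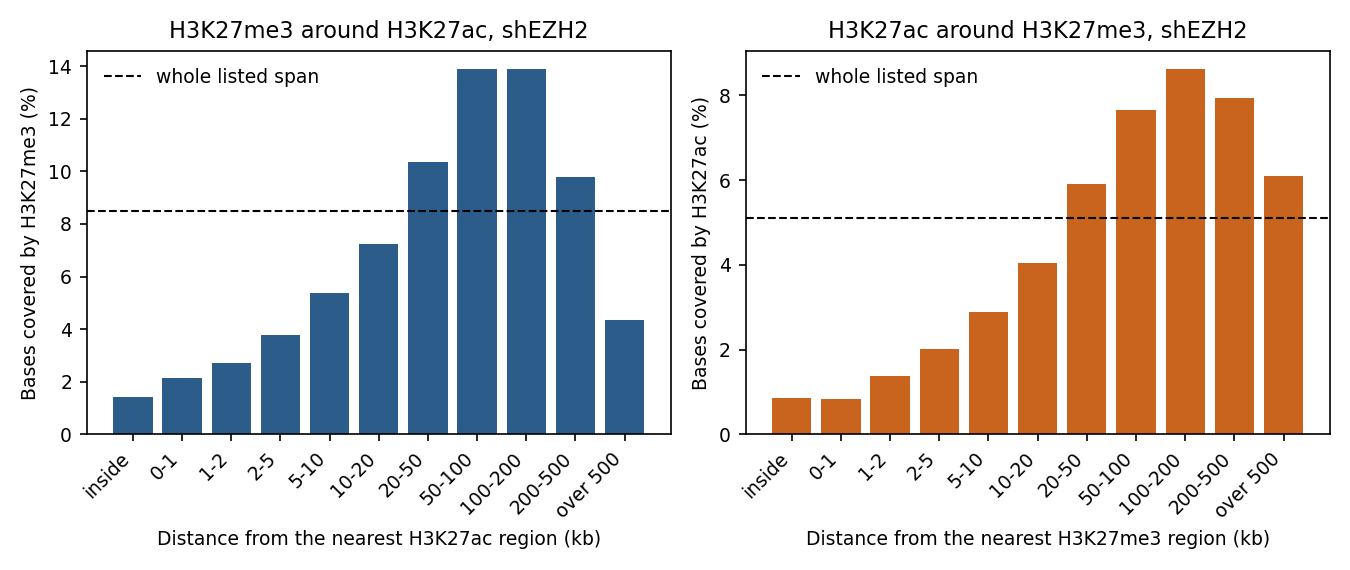
Cover by 1 mark (y axis, % of bases) at increasing distance from the nearest region of the other (x axis, kb), shEZH2 cells, repeat-rich sequence left out. The dashed line is the cover over the whole listed span, 8.48% for H3K27me3 (left) and 5.11% for H3K27ac (right). Cover is lowest inside and next to the other mark, peaks between 50 and 200 kb away and is lower again in the bins farther out.

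Weak H3K27ac regions met H3K27me3 more often than strong ones, while for H3K27me3 the order was opposite. Of H3K27ac regions in the lowest decile of tags 5.20% (4.65 to 5.80) touched H3K27me3, and in the highest 2.11% (1.76 to 2.51). For H3K27me3 regions the shares touching H3K27ac were 1.11% (0.912 to 1.33) and 6.97% (6.48 to 7.49). Wider regions offer more length to be touched, and median widths ran from 1001 to 5191.5 bp for H3K27ac and from 1001 to 7010 bp for H3K27me3. The fall along the H3K27ac deciles therefore went against width. Of the densest 1% of each list outside repeat-rich sequence, 5 of 552 H3K27ac regions (0.906%) and 159 of 861 H3K27me3 regions (18.5%) touched the other mark.

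Stretches carrying both marks were short. Outside repeat-rich sequence there were 1844, with a median of 1001 bp and a total of 2.00 Mb. Regions were called in windows of 1000 bp, and 30.7% of all H3K27me3 and 21.5% of all H3K27ac regions were no wider than 1001 bp. The part of the calling window in that median was not tested. In 1105 of them (59.9%) the ends of 2 regions overlapped. In 614 (33.3%) an H3K27ac region lay wholly inside H3K27me3, and in 125 (6.78%) an H3K27me3 region lay inside H3K27ac. Stretches with H3K27ac inside H3K27me3 were called with H3K27me3 in control in 90.1% of cases and with H3K27ac in 33.2%. In the control lists 473 of the 1844 (25.7%) touched both marks and 559 touched neither. The control lists needed higher densities, so a stretch without a control call is not shown to have gained a mark.

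EZH2 was frequent where the marks met. An EZH2 peak of the knockdown list lay in 613 of these 1844 stretches (33.2%), and in 55.2% of those with H3K27ac inside H3K27me3. Of H3K27ac regions touching H3K27me3, 38.1% (35.8 to 40.4) held EZH2, against 3.77% (3.61 to 3.93) of the others. The touching H3K27ac regions were narrower (median 1282 against 1852 bp) and held fewer tags (20.7 against 31.1). For H3K27me3 regions the shares holding EZH2 were 41.1% and 3.20%, but here the touching regions were wider (2270 against 1530 bp). The part of width in that difference was not tested.

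Of the 10 longest shared stretches, 6 held EZH2, with 15 peaks between them. The longest, 39.0 kb on chromosome 1 from 228744074 to 228783103, held no EZH2 peak and carried both marks in control. A stretch of 32.0 kb on chromosome 1 from 161410626 to 161442653 held none either. One of 25.4 kb on chromosome Y from 13452049 to 13477434 held 5, and one of 13.8 kb on chromosome 2 from 89866602 to 89880427 held 4. All 10 of the longest touched both marks in the control lists.

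In windows of 100 kb, few held much of both marks. A window was called dominated by a mark that covered at least 10% of it and at least 4 times the length of the other. Of 30959 windows, H3K27me3 dominated 5917 (19.1%) and H3K27ac 3983 (12.9%). In 1.34% both marks covered at least 10% with neither 4-fold ahead, and 5250 held no region. H3K27me3-dominated windows held 76.9% of all H3K27me3 length and 4.05% of the H3K27ac length. H3K27ac-dominated windows held 56.4% of the H3K27ac length and 0.721% of the H3K27me3 length. The same minimum cover was used for both marks although H3K27ac covered less in all, so these shares do not compare how dispersed the marks were. No H3K27me3 at all was listed in 79.4% of H3K27ac-dominated windows, against 45.5% of all windows. No H3K27ac was listed in 59.1% of H3K27me3-dominated windows, against 42.8% of all windows. The 4-fold rule itself leaves out windows with much of the other mark. Outside repeat-rich sequence, windows with no H3K27ac had a median H3K27me3 cover of 3.00%, those with up to 2% H3K27ac 3.37%, and those with 2 to 5% 1.25%. Above 5% H3K27ac the median was 0.

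**Figure D3:**
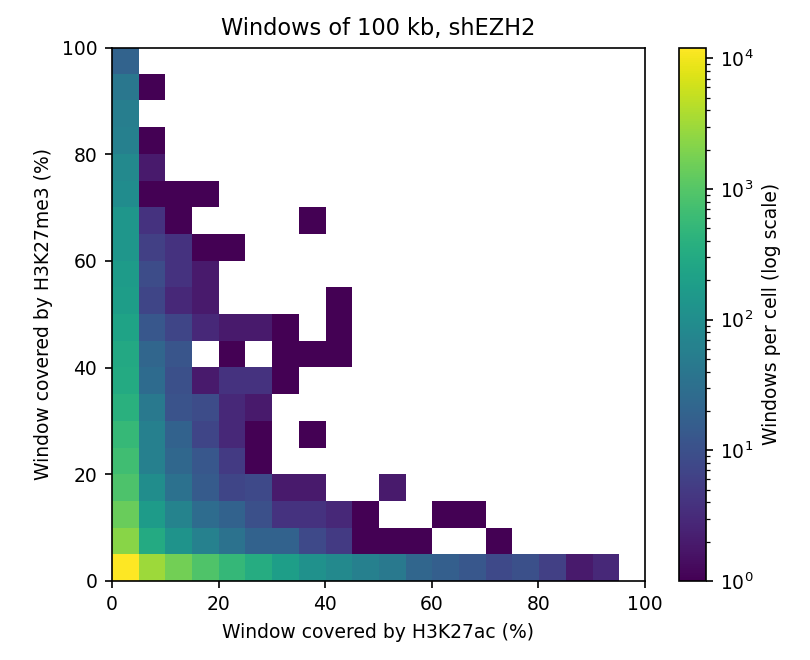
Windows of 100 kb outside repeat-rich sequence by the share covered by H3K27ac (x axis, %) and by H3K27me3 (y axis, %) in shEZH2 cells. Colour gives the number of windows per cell of 5 by 5 percentage points (log scale). Windows lie along both axes, and few reach a high cover of both marks: of all windows, repeat-rich ones included, 1.34% carry at least 10% of each mark without a 4-fold lead.

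The control lists had the same leading mark in most of these windows. Of the 3983 windows dominated by H3K27ac in shEZH2, 3952 (99.2%, 98.9 to 99.5) had at least 4-fold more H3K27ac than H3K27me3 length in control, and 0 had the opposite (upper exact limit 0.0926%). Of the 5917 dominated by H3K27me3, 5116 (86.5%, 85.6 to 87.3) were led by H3K27me3 in control, 647 had no 4-fold lead, 117 had no control region and 37 (0.625%) were led by H3K27ac. Those 37 rested on little sequence: the median control H3K27ac length was 776 bp, the highest 1884 bp, and H3K27me3 covered 10.2% to 24.8% of them in shEZH2. Window size and density minimum differed between the groups, and in control the minimum was higher for H3K27ac than for H3K27me3. The lead in control needed no minimum cover. The share of all windows led by each mark in control was not computed, so 99.2% and 86.5% stand without a background share.

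The fullest windows held little of the other mark, which their choice as dominated and nearly filled by 1 mark in part fixed. The 10 H3K27ac-dominated windows with most cover reached 81.0% to 93.7%, and none held listed H3K27me3. The first was on chromosome 12 from 65.0 to 65.1 Mb, with 93.7% cover and no EZH2 peak. Next came chromosome 19 from 13.1 to 13.2 Mb, with 92.6% cover and 1 EZH2 peak. Together these 10 held 5 EZH2 peaks in shEZH2 and 10 in control. The 10 fullest H3K27me3-dominated windows reached 96.6% to 98.8%, with at most 1.78% H3K27ac. They held 45 EZH2 peaks in shEZH2 and 56 in control. Chromosome 17 from 77.2 to 77.3 Mb, at 98.8%, held 1 EZH2 peak, and chromosome 18 from 76.4 to 76.5 Mb, at 96.8%, held 10.

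H3K27me3 formed longer runs of neighbouring windows. Outside repeat-rich sequence an H3K27me3-dominated window was followed by another in 61.2% of cases (60.0 to 62.5) and by an H3K27ac-dominated one in 3.91%. After an H3K27ac-dominated window these shares were 45.3% (43.7 to 46.9) for H3K27ac and 5.34% for H3K27me3. Runs of at least 10 windows numbered 64 for H3K27me3 and 3 for H3K27ac. H3K27me3-dominated windows were also the more frequent, 5759 against 3897 of the 28664 windows. The part of that frequency in the follow-on shares and run lengths was not tested. The longest H3K27me3 run was 2.4 Mb on chromosome 5 from 1900001 to 4300000, with 43.7% cover and 20 EZH2 peaks, against 76 in control. The second, 2.2 Mb on chromosome 19 from 30600001 to 32800000, held 13 EZH2 peaks. The longest H3K27ac runs were 1.0 Mb, on chromosome 1 from 8000001 to 9000000, chromosome 17 from 17300001 to 18300000 and chromosome 3 from 174500001 to 175500000. On chromosome 3 the run had 31.0% cover, no H3K27me3 and no EZH2 peak in either group.

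Outside repeat-rich sequence, both kinds of window were more frequent towards chromosome ends, H3K27me3 most of all 2 to 5 Mb from them. There 40.6% of windows (37.8 to 43.3) were dominated by H3K27me3, against 15.2% (14.5 to 15.9) more than 50 Mb away. In the outermost 1 Mb the marks were level, at 23.8% each. H3K27ac fell from there to 17.9% at 2 to 5 Mb and 11.2% beyond 50 Mb. EZH2 peaks averaged 1.23 per window in the outermost 1 Mb, 1.30 from 1 to 2 Mb, 0.774 from 2 to 5 Mb and 0.202 beyond 50 Mb. Of the windows outside repeat-rich sequence with at least 10% of each mark and no 4-fold lead, 30.7% (26.0 to 35.7) lay within 5 Mb of an end, against 7.33% of all windows.

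**Figure D4:**
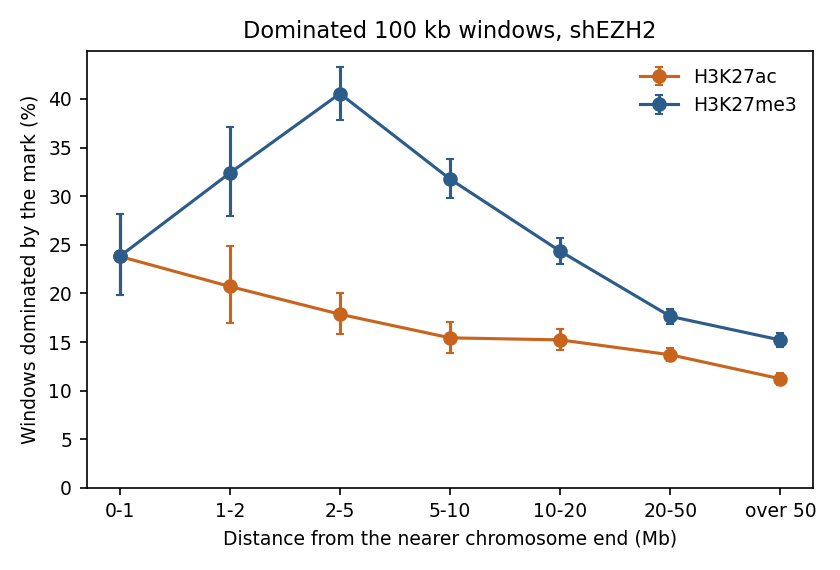
Share of 100 kb windows dominated by each mark (y axis, %) by distance from the nearer end of the chromosome's listed span (x axis, Mb), shEZH2 cells, repeat-rich sequence left out. Bars are exact 95% intervals for counting error. H3K27me3 peaks at 40.6% between 2 and 5 Mb, while H3K27ac falls from 23.8% to 11.2%.

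Chromosomes differed in the balance of the marks. On chromosome 20, H3K27me3 covered 16.9% of the sequence and 2.82 times as much as H3K27ac, the highest of the 24 chromosomes. Chromosomes 7 and 8 followed with 2.44 and 2.35. The ratio was 0.996 on chromosome 6 and 0.541 on chromosome X, where H3K27me3 covered 1.11% and dominated 42 of 1553 windows. Chromosome 19 had the highest H3K27ac cover, with 25.8% of its windows dominated by H3K27ac, 25.5% by H3K27me3 and 0.730 EZH2 peaks per window. Chromosome X had 0.0457 EZH2 peaks per window. Its share of uniquely mappable sequence and its number of copies were not measured.

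Most EZH2 peaks of the knockdown list lay on H3K27me3. Of 9493 peaks, 5131 (54.1%, 53.0 to 55.1) overlapped H3K27me3 alone, 2466 (26.0%, 25.1 to 26.9) H3K27ac alone, 1302 (13.7%, 13.0 to 14.4) both marks and 594 (6.26%, 5.78 to 6.76) neither. Repeat-rich sequence held 39.5% of the peaks on both marks, against 5.71% of those on H3K27me3 alone and 6.89% of those on H3K27ac alone. Without it the shares were 57.8%, 27.4%, 9.41% and 5.43%. Per covered Mb there were 21.2 peaks on H3K27me3 alone, 17.0 on H3K27ac alone and 333 where both marks were listed.

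Placed on the same knockdown regions, the 23060 control EZH2 peaks gave another distribution. H3K27me3 alone held 49.0% of them (48.4 to 49.7), H3K27ac alone 34.5% (33.9 to 35.1), both marks 7.29% and neither 9.24%. The knockdown list had 0.454 times as many peaks as control on H3K27me3 alone and 0.310 times as many on H3K27ac alone. On both marks the ratio was 0.775 and on neither 0.279. By windows the ratios were 0.459 where H3K27me3 dominated and 0.303 where H3K27ac did. An EZH2 peak needed 10 tags in 151 bp in shEZH2 and 9 tags in 183 bp in control, from libraries of 14514395 and 13331155 tags. Per kb these minimums were 45.6 and 36.9 normalised tags, a gap that includes the unlike window sizes. The part of the calling settings, or of any difference in antibody, in the ratios was not tested. The ratios do not give a loss of EZH2 per site.

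EZH2 peaks on H3K27ac were weak and isolated, and those on H3K27me3 stronger and clustered. The following values leave out repeat-rich sequence. The median peak held 10.3 normalised tags on H3K27me3 alone, 8.27 on H3K27ac alone, 11.7 on both and 8.27 on neither. At least 15 tags were reached by 22.4% of peaks on H3K27me3 alone, 2.92% on H3K27ac alone and 34.1% on both. Another EZH2 peak lay within 10 kb of 60.3%, 18.5% and 59.5% of them. The median fold over the surrounding 10 kb was nevertheless 10.38 on H3K27ac alone and 6.99 on H3K27me3 alone. Among peaks with under 8 tags, H3K27ac alone held 44.6% (42.4 to 46.9) and H3K27me3 alone 41.3% (39.1 to 43.6). Among those with 15 to 25 tags the shares were 4.35% (3.22 to 5.72) and 80.8% (78.3 to 83.1). At 25 tags or more the share on both marks rose to 38.3% (33.4 to 43.4) of 381 peaks.

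EZH2 tracked the richest regions of each mark. By decile of tags, it lay in 29.3% (28.4 to 30.2) of the richest H3K27me3 regions and 0.262% of the poorest. For H3K27ac these shares were 19.6% (18.6 to 20.6) and 1.89%. In each of the 9 lower deciles the H3K27ac share was the higher one, at 1.89% to 10.1% against 0.262% to 6.16%. With the control EZH2 peaks, the highest deciles of these knockdown regions held EZH2 in 53.0% of cases for H3K27ac and 50.1% for H3K27me3. The highest decile thus had a larger share for H3K27ac with control peaks and for H3K27me3 with knockdown peaks, and a test of that difference was not possible with 1 library.

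**Figure D5:**
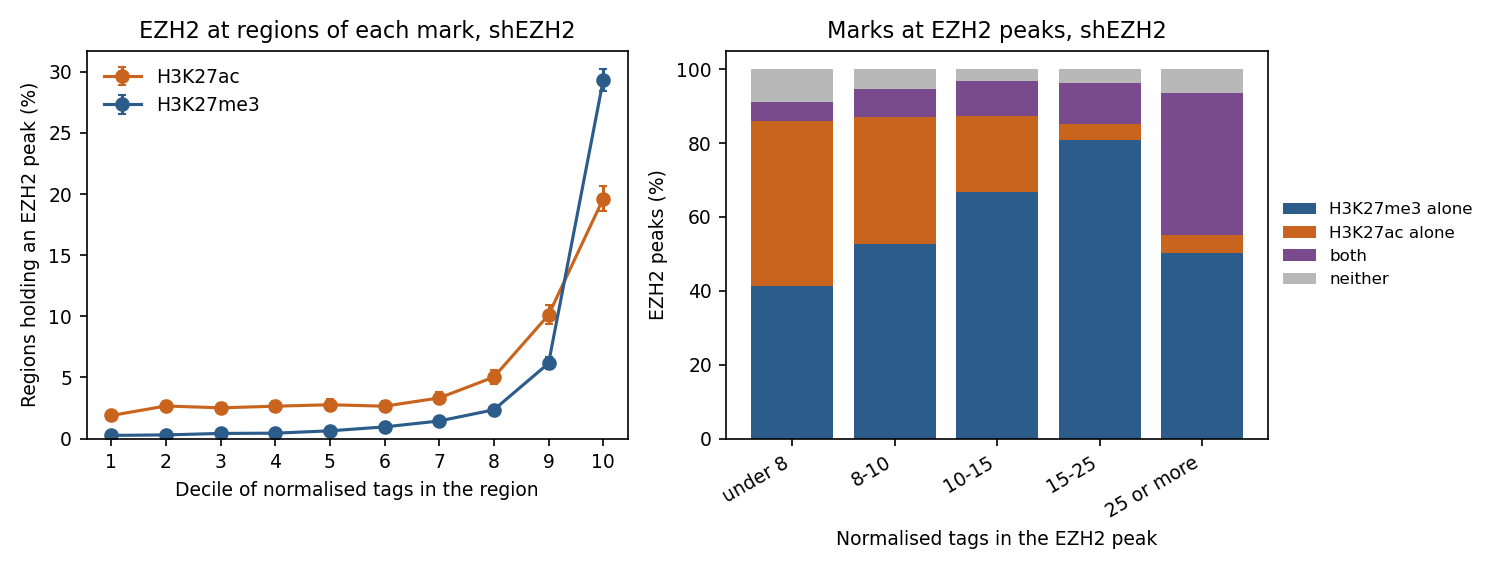
Knockdown EZH2 peaks and the marks in shEZH2 cells. Left, share of regions holding an EZH2 peak (y axis, %) by decile of normalised tags (x axis), with exact 95% intervals for counting error. It ends at 29.3% for H3K27me3 and 19.6% for H3K27ac. Right, share of EZH2 peaks in each class of marks (y axis, %) by normalised tags in the peak (x axis), repeat-rich sequence left out. H3K27ac alone falls from 44.6% to 4.99%.

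At equal region width the order of the marks changed along the range. Outside repeat-rich sequence, 2.47% of H3K27ac and 0.393% of H3K27me3 regions of up to 1001 bp held EZH2. Between 3 and 5 kb the shares were 8.13% (7.58 to 8.72) and 7.92% (7.42 to 8.45), with overlapping intervals. Over 10 kb they were 19.9% (17.3 to 22.8) and 39.9% (37.9 to 41.9). Regions with EZH2 were richer than those without in both lists. Holders had medians of 185.1 tags and 2833 bp for H3K27ac, against 28.9 tags and 1812 bp. For H3K27me3 they had 128.4 tags and 5371.5 bp, against 16.4 tags and 1511 bp. At least 2 peaks were found in 34.9% of the 3720 H3K27me3 holders and in 11.1% of the 2736 H3K27ac holders. Of the densest 1% of H3K27me3 regions, 85.1% held EZH2, against 28.8% of the densest 1% of H3K27ac regions.

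Inside regions of at least 3 kb, EZH2 peaks lay towards the middle of either mark. The distance from the region's centre, as a share of its half-width, had a median of 0.338 (0.314 to 0.361) for 1410 peaks in H3K27ac and 0.330 (0.320 to 0.341) for 4631 in H3K27me3. The inner 50% of the width held 70.9% and 71.5% of them. The intervals overlapped, but they count peaks of the same region as independent, so a difference in position between the marks was not tested.

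Of all 8377 knockdown EZH2 peaks outside repeat-rich sequence, 56.0% (54.9 to 57.0) overlapped a control peak. The share was 55.1% on H3K27me3 alone, 59.0% on H3K27ac alone, 66.1% on both and 32.5% on neither. Of the 10 of highest score, all 10 did so in each of the first 3 classes and 9 with neither mark. The 10 of highest score on H3K27me3 alone held 44.1 to 93 normalised tags. The first lay on chromosome 8 from 1397939 to 1398089 with 69.6 tags, 21.74-fold above its surroundings, and the second on chromosome 5 from 180085527 to 180085677 with 60.6 tags, 43.32-fold above them. On H3K27ac alone the first, on chromosome 1 from 567479 to 567629, was only 5.13-fold above its surroundings, where a call required 4-fold. The third, on chromosome 16 from 14580850 to 14581000, held 157.1 tags and stood 239.86-fold above them. On both marks the first lay on chromosome 7 from 157944077 to 157944227 with 314.9 tags. With neither mark, the first lay on chromosome 1 from 566464 to 566614, with 252.2 tags at only 4.56-fold. The second, on chromosome 3 from 196625653 to 196625803, held 1152.6 tags at 366.37-fold. Of the 10 with neither mark, 4 lay within chromosome 5 from 134260186 to 134263533. No repeat annotation or input library was used, so the part of repeated sequence in such peaks was not tested.

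Most peaks with neither mark lay within 10 kb of a listed region. Of 455 outside repeat-rich sequence, 75.8% lay within 10 kb of a listed region and 3.08% more than 50 kb away, at a median of 4.02 kb. The nearer mark was H3K27ac for 253 and H3K27me3 for 202. The share of all sequence at these distances was not computed, so such nearness is not shown to be particular to these peaks.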

How the data were processed

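Chromatin immunoprecipitation with sequencing was analysed from 6 peak lists, 1 library each. The remaining 3 samples were not analysed here. The submitters' processing notes name BWA 0.6.1, HOMER 4.1 and hg19. No input library appears in the calling command, per the file headers. Normalised tags are the deposited signal: tags of a region after the authors scaled each library to 10000000. Regions were ranked within a list by the deposited score. The deposited fold and local p-value set an EZH2 peak against the surrounding 10 kb, and the authors required 4-fold. The fold is quoted, and the p-value, the clonal fold and the deposited focus fraction were not used. EZH2 peaks passed a false discovery rate of 0.001, per the file headers.

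From these lists, overlap (at least 1 bp), distances, windows of 100 kb and exact binomial intervals were computed. Uniform placement was calculated in closed form from all positions, with no simulation. Tags of regions crossing window borders were shared by length. Distances to chromosome ends used the listed span, without starts more than 5 Mb from position 1. The longest gap of a chromosome need not be its centromere. The interval code was tested on simulated data and its overlap numbers equalled those of bedtools 2.31.1. Intervals came from scipy 1.17.1, tables from pandas 2.3.3 with numpy 2.4.6, and plots from matplotlib 3.10.9, all in Python 3.11.15. Members, windows, cut-offs and the naming rule were fixed with earlier results of these data known. That rule took the 10 fullest windows, longest runs, widest regions, regions with most tags and longest shared stretches, and the 10 EZH2 peaks of highest score in each class, outside repeat-rich sequence. The densest 1% of regions, the leading mark of control lists, chromosome ends, single chromosomes and deciles were added after the data were seen. Gene lists written for an hg19 annotation were not used.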

Additional observations from a re-analysis of the deposited data

How the results depend on the processing

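No paired analysis was possible because each target had 1 library per group. The share of H3K27ac regions touching H3K27me3, 3.95%, became 2.80% with at least 50% of the region covered, 5.59% within 1 kb, 2.96% for the upper 50% of each list by score, 3.12% without contigs and gap flanks, 3.03% with lists of equal length and 3.72% on autosomes alone, an alternative added after the data were seen. For H3K27me3 regions touching H3K27ac, 2.25%, the same settings gave 0.968%, 3.47%, 1.78%, 1.80%, 2.83% and 2.09%. H3K27ac-dominated windows, 3983, numbered 6652 with a minimum cover of 5%, 1503 with 20% and 1760 for the upper 50% by score. H3K27me3-dominated windows, 5917, numbered 7755 with 5%, 3730 with 20% and 3946 for the upper 50% by score. H3K27me3 dominated more windows than H3K27ac under each of the 8 alternatives run for windows. EZH2 peaks on H3K27me3 alone, 54.1%, became 50.1% for the upper 50% of all 3 lists by score and 57.8% without contigs and gap flanks. On H3K27ac alone, 26.0%, these were 10.8% and 27.4%. The ratio of median widths, H3K27ac over H3K27me3, was 1.15 for the upper 50% by score and turned to 0.616 for regions with at least 50 normalised tags. The ratio of median tags, 1.77, became 2.08 and 1.59. The cause of these shifts was not tested. Of 42 alternative values, 18 stayed within the counting interval or, for windows, within 1.5 times. The lists hold only regions over the threshold, so a mark below 9.47 (H3K27ac) or 9.53 (H3K27me3) normalised tags per kb counts as absent. So does a mark short of the required local excess.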
